A study of Caenorhabditis elegans with 2 samples.

Results

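The regions described here are 473 stretches of the Caenorhabditis elegans autosomes that lie just upstream of protein-coding genes and stood high in a chromatin immunoprecipitation (ChIP-seq) of the nuclear hormone receptor NHR-28. They were chosen by the authors' pooled signal and by place. Among 30000 candidate regions of the list made from both replicates together, those of ranks 1 to 3000 by signal were kept if they lay on chromosomes I to V and had their summit outside any annotated gene and at most 500 bp upstream of the nearest protein-coding gene start. The 30000 candidate regions hold peaks and background alike, so a place among them is not by itself a binding call. Coordinates are in ce11, the assembly also called WBcel235.

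The animals were whole first-stage (L1) larvae of mixed sex from strain OP317, genotype unc-119(ed3) III; wgIs317, in which an integrated transgene supplies NHR-28 fused to enhanced green fluorescent protein (eGFP). The labels name nhr-28 as the antibody target and describe the ChIP as against eGFP-nhr-28. Both biological replicates carry the same genotype, stage and tag, and they form 1 group. There was no second condition, the age is given as unknown, and the labels state neither which cells expressed the transgene nor whether the native nhr-28 gene was intact. Whole larvae mix all tissues, so signal in few cells and weak signal in many cannot be told apart.

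Nuclear hormone receptors are transcription factors that bind DNA through zinc fingers and can respond to small lipophilic ligands. The worm family is far larger than that of mammals, and many of its members are thought to descend from an HNF4-like receptor. The sequence upstream of a gene start carries the promoter, where general factors, RNA polymerase II and gene-specific regulators assemble. Worm genes are densely packed, and neighbours that face away from each other (head to head) share the stretch between their starts.

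The 473 regions made up 19.7% (exact 95% interval 18.1 to 21.3) of the 2407 autosomal regions of ranks 1 to 3000. Among the 22119 lower-ranked autosomal regions, 2285 met the same rule of place, a share of 10.3% (9.93 to 10.7). These 2285 regions, called lower-ranked below, are the set the members were compared with. From chromosome I to V the members' shares of the top regions were 20.0%, 22.3%, 21.4%, 15.5% and 21.8%, against 9.63%, 11.5%, 9.48%, 8.50% and 12.8% for the lower-ranked regions on the same chromosomes. The share was higher among the top regions on each of the 5 chromosomes. All intervals here cover counting error over regions only, and regions are not replicates of the experiment, so no test was made between the sets.

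Members were 330 bp wide and had signal values from 26.1 to 116.7 with a median of 31.9, against 12.5 to 26.08 with a median of 17.2 in lower-ranked regions. The signal is the authors' value, ranks regions within 1 list only, and chose the members. Just inside the rank limit lay the regions of ints-1 (rank 2983, signal 26.13), Y38C1AA.6 (rank 2985) and dnbp-1 (rank 2990, signal 26.11), and just outside it those of C54F6.5 (rank 3004, signal 26.08), nex-1 (rank 3011) and lgc-10 (rank 3019). The distance limit passed between mcd-1, pals-22 and aqp-10 at 490, 495 and 496 bp and ttll-11, Y87G2A.13 and F36D3.1 at 502, 503 and 503 bp. The limits thus cut through a continuous run of values.

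The 4 members of best rank on chromosomes II to V are printed first because they show what the highest promoter-proximal regions look like. Each line gives 61 bases centred on the summit, 5′ to 3′ on the strand of the gene, from the RefSeq genome of WBcel235. They lie at chrIV:4750065-4750125, chrIII:13643711-13643771, chrII:10563541-10563601 and chrIII:3867528-3867588. Capitals mark CTGCGTC (reverse complement GACGCAG) or GAGAGA (reverse complement TCTCTC).
Y17G9B.5: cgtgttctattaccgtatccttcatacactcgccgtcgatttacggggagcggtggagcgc
drr-2: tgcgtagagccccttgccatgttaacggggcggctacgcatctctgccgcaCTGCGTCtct
cdc-48.1: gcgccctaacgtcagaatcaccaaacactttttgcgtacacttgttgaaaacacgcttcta
rpl-3: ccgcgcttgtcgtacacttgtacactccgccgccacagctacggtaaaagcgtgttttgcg

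The 6 members of best rank on chromosomes II to V with GAGAGA or its reverse complement within 30 bp of the summit follow, since a run of GA was the word chosen for counting. They belong to jun-1 (chrII:9112933-9112993), hsp-1 (chrIV:17278537-17278597), cox-5A (chrIII:12905208-12905268), sec-61.G (chrV:10897349-10897409), haf-3 (chrV:15766327-15766387) and sti-1 (chrV:773392-773452). The capitals mark the same words as above.
jun-1: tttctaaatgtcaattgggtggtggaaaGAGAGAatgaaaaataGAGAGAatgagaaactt
hsp-1: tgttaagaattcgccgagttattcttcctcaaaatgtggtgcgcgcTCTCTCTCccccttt
cox-5A: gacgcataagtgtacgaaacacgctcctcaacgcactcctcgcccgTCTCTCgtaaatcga
sec-61.G: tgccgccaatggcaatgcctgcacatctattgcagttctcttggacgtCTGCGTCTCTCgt
haf-3: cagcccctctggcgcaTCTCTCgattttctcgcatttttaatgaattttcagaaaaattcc
sti-1: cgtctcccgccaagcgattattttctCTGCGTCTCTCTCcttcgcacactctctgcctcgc
In sec-61.G and sti-1 the reverse complement of GAGAGA overlapped the end of CTGCGTC.

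A set with CTGCGTC near the summit is shown because of its counts, and the word was chosen for printing after they were seen. It had the largest ratio of its shares in members and lower-ranked regions among the 16 words listed for the search. Those words were listed with earlier results of these data known. Besides drr-2, sec-61.G and sti-1 above, the highest members with it within 30 bp were R09E12.9 (chrV:777462-777522), ugt-58 (chrII:9586958-9587018) and ugt-20 (chrIV:6083800-6083860). In R09E12.9 it stands on the strand opposite the gene.
R09E12.9: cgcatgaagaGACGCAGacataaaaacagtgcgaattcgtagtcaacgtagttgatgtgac
ugt-58: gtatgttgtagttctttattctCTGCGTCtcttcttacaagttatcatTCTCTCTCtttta
ugt-20: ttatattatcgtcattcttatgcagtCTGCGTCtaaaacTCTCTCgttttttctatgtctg

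The 12 members of best rank lay upstream of genes of different roles. The highest was on IV from 4749930 to 4750259, 145 bp upstream of Y17G9B.5, with signal 116.7, pooled rank 25, and ranks 27 and 41 in replicates 1 and 2. It stands head to head with rpl-20, a gene of the large ribosomal subunit, whose start lies 317 bp from the summit. The next, from 13643576 to 13643905 of chromosome III, had signal 103.4 and ranks 32 and 33, and lay 171 bp upstream of drr-2, which encodes a translation initiation factor of the eIF4H type. On its other side, 175 bp away, starts set-16, a histone H3 methyltransferase gene. Both regions could therefore be given to either neighbour, and the nearest start decided.

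The region of cdc-48.1, the p97-type ATPase that unfolds ubiquitinated proteins, lay on II from 10563406 to 10563735 with pooled rank 34, replicate ranks 50 and 36, and signal 88.4. The region of rpl-3, a large-subunit ribosomal protein, spanned 3867393 to 3867722 of chromosome III, and its signal was 86.6 and its ranks 39 and 47, with the summit 296 bp upstream. The region of tos-1, known as a gene used to follow splicing, lay on V from 9344196 to 9344525 with signal 84.5 and ranks 51 and 38. These 3 stand between genes that run the same way (tandem), so each has 1 start beside it. The region of eif-3.C, a subunit of initiation factor 3, had signal 81.2 and ranks 87 and 46. The region of jun-1, a bZIP factor of the AP-1 family, had signal 79.1 and ranks 62 and 74.

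The remaining 5 of the 12 highest had signal between 70.3 and 75.5. They lay upstream of his-37 (histone H4), gst-5 (a glutathione S-transferase), plin-1 (perilipin, a lipid droplet protein), F55A11.1 and tasp-1 (a threonine aspartase). The summit of tasp-1 was the nearest to its gene of these 12, at 40 bp, and F55A11.1 stands head to head with the syntaxin gene syx-5, 309 bp away. Over all 12 regions the ranks ran from 27 to 108 in replicate 1 and from 33 to 178 in replicate 2, so each was high in both. Of the 12, 5 lay between head-to-head genes, 2 held CTGCGTC and 5 held GAGAGA within 100 bp of the summit.

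Replicate ranks further down agreed less. The pooled list holds the reads of both replicates, so these ranks are not independent of the rule and are a description. A region counts as found in a replicate when a region of that replicate's list overlaps it by at least 1 bp. Of the 473 members, 458 were found in replicate 1 with a median rank of 1672, and 426 in replicate 2 with a median rank of 3164.5 among those found. None was missing from both lists.

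Among the 3000 highest regions of replicate 1 were 286 members (60.5%), against 10.4% of all candidate regions. The corresponding count in replicate 2 was 210 (44.4%), against 9.74% of all candidate regions. In both replicates it was 112 members (23.7%, 19.9 to 27.8), against 1.89% of all candidate regions. Replicate 1 alone held 174 of the members there, replicate 2 alone 98, and 89 were in neither. Of the lower-ranked regions 15 of 2285 (0.656%) were among the 3000 highest of both. The other 1934 autosomal regions of ranks 1 to 3000 reached 12.9%, and the 66 regions of the same place on X, chosen by the same rank limit, reached 14 (21.2%, 12.1 to 33.0).

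The share in both replicates went with pooled rank. Of the 139 members of ranks 1 to 500, 89 (64.0%) were among the 3000 highest of both, and of the 91 of ranks 501 to 1000, 17 (18.7%) were. Of the 126 members of ranks 1001 to 2000 the count was 6 (4.76%), and of the 117 of ranks 2001 to 3000 it was 0. Most members below rank 1000 thus stood high in the pooled list with 1 replicate outside its 3000 highest, or both.

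The authors' thresholded list, made by the irreproducible discovery rate, held 47 members (9.94%, 7.39 to 13.0), against 0.53% of all candidate regions. Its 159 regions were the 159 highest of the pooled list, so it repeats the pooled rank and adds no separate evidence. Of the 47, 43 were among the 3000 highest of both replicates. The exceptions were T07F10.3, rpl-35 and cdr-6, at ranks 3350, 3244 and 4334 in replicate 2, and ugt-58, which had rank 47 in replicate 1 and no overlapping region in replicate 2.

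**Figure D1:**
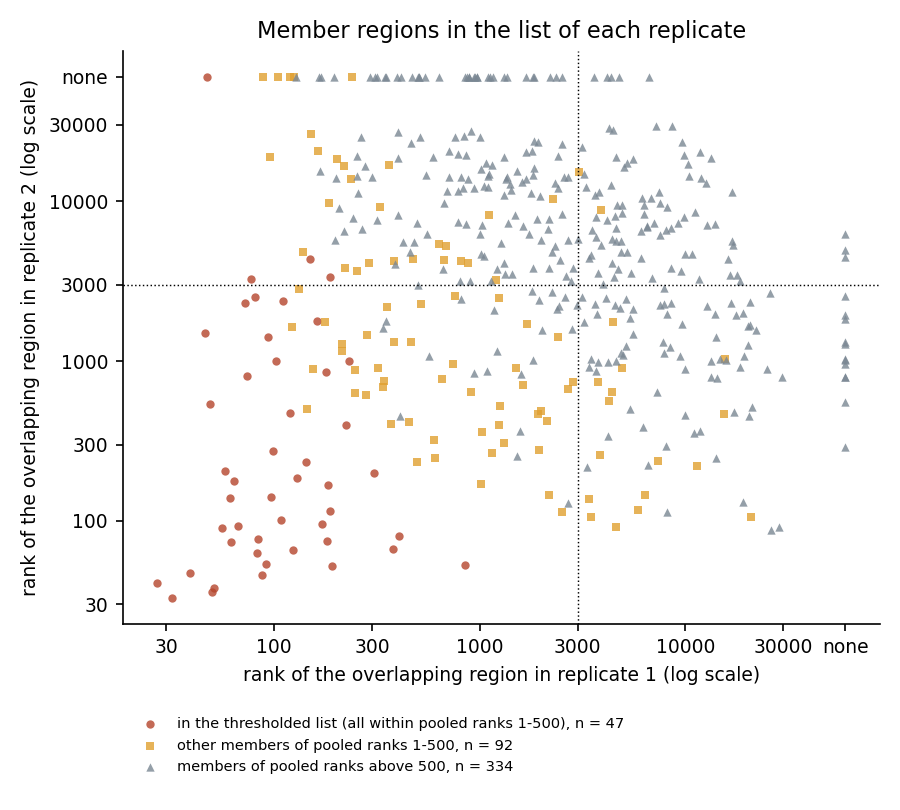
Rank of the region that overlaps each of the 473 members in replicate 1 (x) and replicate 2 (y), both on log scales, with points at "none" where no region overlaps; dotted lines mark rank 3000. The 47 thresholded members sit at the lower left, with 4 above the line of replicate 2, while members of pooled ranks 501 to 3000 spread over all 4 quadrants.

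Among members found in both lists, the 3 with the largest ratio of replicate ranks stood high in replicate 2, but this did not hold further down. The next in that order, Y105C5B.5 with ranks 96 and 18903 and cyp-14A5 with ranks 151 and 26200, stood high in replicate 1. Of all members 15 had no region in replicate 1 and 47 none in replicate 2, and these have no ratio. The second region of ubc-25, a ubiquitin-conjugating enzyme gene, lay on I from 10562654 to 10562983 and had rank 28619 in replicate 1 and 91 in replicate 2. It overlaps the other ubc-25 region, from 10562442 to 10562771, which had ranks 4618 and 91, and both matched the same region of replicate 2. The region of pabp-2, a nuclear poly(A)-binding protein gene, had ranks 26179 and 88, and that of F13H10.3 had ranks 20923 and 105. ubc-25 was the only gene with more than 1 member, so the 473 regions were assigned to 472 genes.

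Fewer members than lower-ranked regions lay at the far end of the window of 500 bp. The median distance from summit to start was 204 bp (185 to 218), against 223 bp (210 to 233), with intervals that overlap. In the step from 401 to 500 bp lay 8.88% of members (6.47 to 11.8), against 15.1% (13.7 to 16.7) of lower-ranked regions. From 101 to 300 bp the members' shares were 26.6% and 25.4% in the 2 steps of 100 bp, against 22.7% and 21.2%. The first step, from 1 to 100 bp, held 22.6% of members and 23.2% of lower-ranked regions, so the sets did not differ there beyond their intervals.

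More members lay between head-to-head genes and in short gaps. Of the members 259 (54.8%, 50.1 to 59.3) had a head-to-head neighbour, against 44.4% (42.4 to 46.5). On chromosome III the shares were 69.2% against 45.3%, on I 56.0% against 41.8%, on IV 54.1% against 44.5% and on V 50.9% against 46.3%. On II the order was the other way round, at 41.9% against 43.2%. The gap between the flanking genes had a median of 831 bp (743 to 981), against 1215 bp (1155 to 1282).

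In 96 members (20.3%, 16.8 to 24.2) both starts of a head-to-head pair lay within 500 bp of the summit, against 217 lower-ranked regions (9.50%, 8.33 to 10.8). At these 96 members the nearer start was a median of 154 bp away and the other 281.5 bp. In 31 of them the distances differed by at most 50 bp, and there the assignment to 1 gene is close to arbitrary. Distance to a start and a short gap between genes depend on each other, and their parts were not tested separately.

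**Figure D2:**
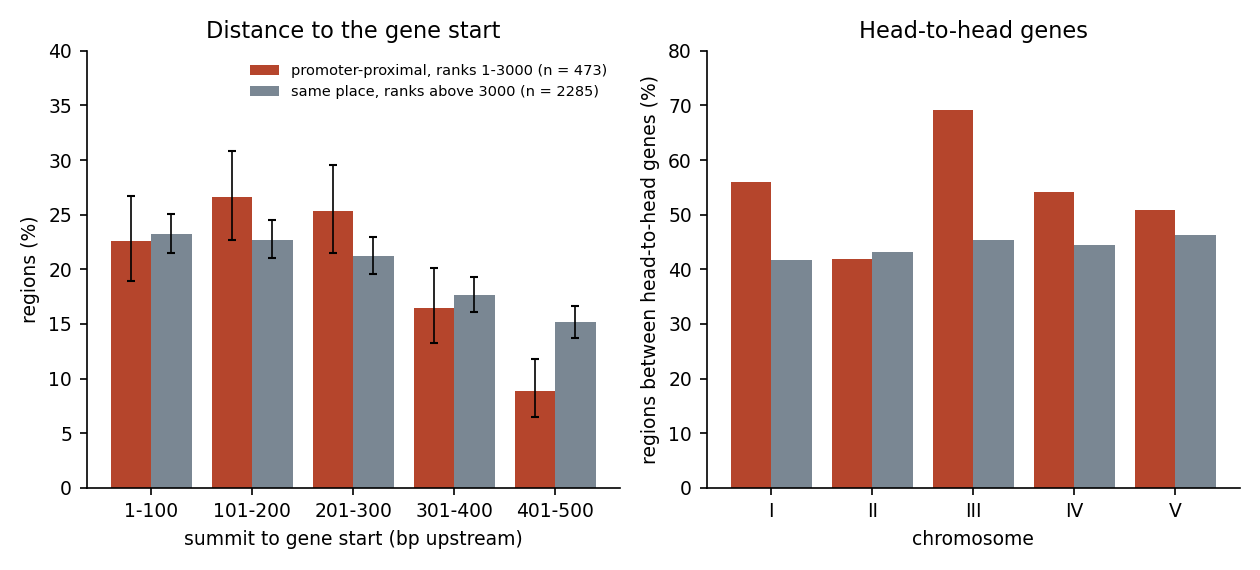
Left, share of regions (%) by distance from summit to gene start in steps of 100 bp, with exact 95% intervals; right, share of regions (%) between head-to-head genes on each autosome. The 473 members (red) fall to 8.88% in the last distance step, against 15.1% for the 2285 lower-ranked regions (grey), and exceed them in head-to-head share on 4 of 5 chromosomes, II being the exception.

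The members were richer in G and C. In 200 bp centred on the summit the GC content had a median of 32.5% (32 to 33.5), against 30.5% (30 to 31), and a mean of 33.8% ± 7.38 against 31.5% ± 6.24 (SD over 473 and 2285 regions). The medians went with rank, at 37%, 32.5%, 31% and 30.5% for members of ranks 1 to 500, 501 to 1000, 1001 to 2000 and 2001 to 3000. Members among the 3000 highest of both replicates had a median of 37.75%, those of replicate 1 alone 32.5%, of replicate 2 alone 30.5%, and of neither 30%. The signal is set relative to a control, but the sources used here do not describe that control. They give no correction for base composition either, so the part of GC content in the signal was not tested.

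CTGCGTC, searched with its reverse complement GACGCAG in the same 200 bp, was the word with the largest ratio among the 16 searched. The 16 words were chosen with earlier results of these data known, so its place among them is only a description. It was in 54 members (11.4%, 8.69 to 14.6), against 86 lower-ranked regions (3.76%, 3.02 to 4.63). It was in 1.82% of all 29975 nuclear candidate regions and in 3.16% of 17242 autosomal promoters, taken as 200 bp centred 200 bp upstream of each gene start. Of the 66 regions of the same place and rank limit on X, 4 held it (6.06%, 1.68 to 14.8). That interval holds both the members' share and the lower-ranked one. The longer CTGCGTCTC (reverse complement GAGACGCAG) was in 45 members (9.51%, 7.02 to 12.5) and 62 lower-ranked regions (2.71%, 2.09 to 3.47), and in 1.25% of all nuclear candidate regions and 2.11% of the promoters. Most members with the shorter word thus also held the longer.

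The word was more frequent in members on each autosome. From chromosome I to V the shares were 10.99%, 9.46%, 8.79%, 12.8% and 13.9%, against 4.42%, 3.34%, 4.53%, 3.81% and 3.12% in lower-ranked regions. By rank it was in 20.1% of members of ranks 1 to 500, 9.89% of 501 to 1000, 7.14% of 1001 to 2000 and 6.84% of 2001 to 3000, and in 4.28%, 4.12% and 3.49% of the lower-ranked steps that follow. It was in 21 (18.8%) of the 112 members among the 3000 highest of both replicates and in 5 (5.62%) of the 89 in neither.

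Since GC content differed too, the word was counted in 3 classes of GC. In windows above 34% GC, 46 of 201 members (22.9%) held it, against 60 of 661 lower-ranked regions (9.08%). Between 28.5% and 34% the shares were 4.86% and 2.81%, and up to 28.5% they were 0.78% and 0.48%. Of the 54 members with the word, 46 thus had windows above 34% GC. The 2 lower classes rest on 7 and 1 members with the word, too few to read a difference from.

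**Figure D3:**
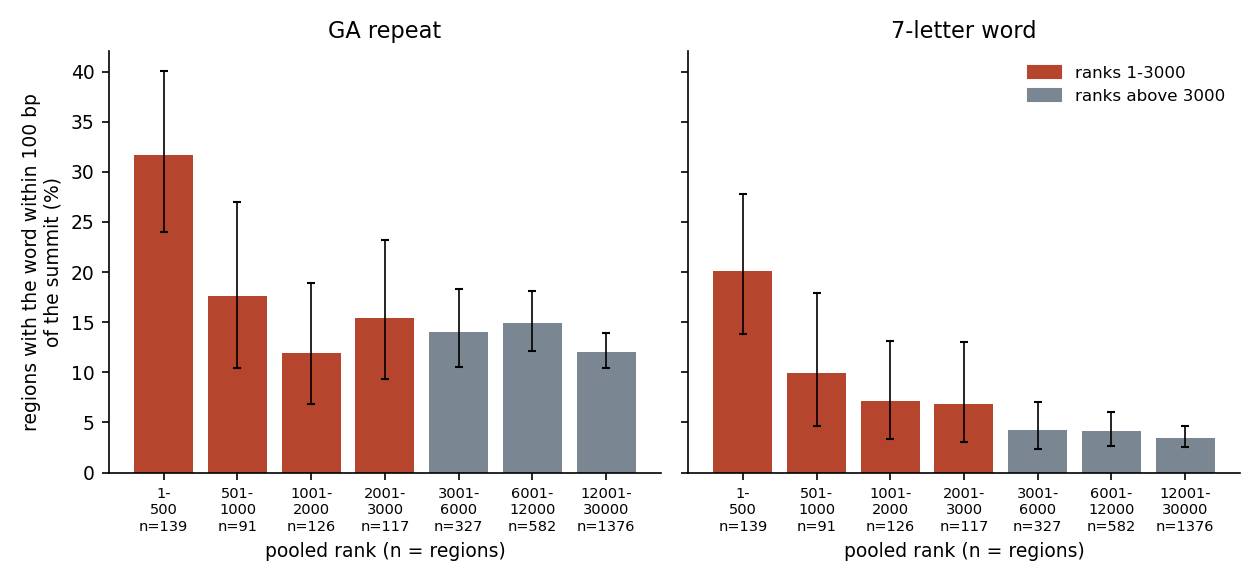
Share of regions (%) that hold the GA repeat (left) or the 7-letter word (right) within 100 bp of the summit, by pooled rank, with exact 95% intervals and n regions under each bar; red bars are members and grey bars lower-ranked regions. Ranks 1 to 500 stand highest for both words, at 31.7% and 20.1%, and the lowest ranks lie at 12.1% and 3.49%.

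CTGCGTC lay close to the summits of members. In the 100 bp before the summit, in the direction of the gene, 6.34% of members held it, and in the 100 bp after it 5.92%, against 1.79% and 2.06% of lower-ranked regions. In the steps beyond 100 bp on either side the members' shares were at most 2.11%. Within 30 bp of the summit it was in 23 members (4.86%, 3.11 to 7.21), against 13 lower-ranked regions (0.569%, 0.303 to 0.971). In members 37 windows held it on the gene's strand and 17 on the other, against 49 and 37 in lower-ranked regions. The nearest copy lay a median of 169 bp from the gene start in members and 180.5 bp in lower-ranked regions.

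GAGAGA, searched with TCTCTC, was in 93 members (19.7%, 16.2 to 23.5), against 299 lower-ranked regions (13.1%, 11.7 to 14.5), and in 9.52% of all nuclear candidate regions and 13.7% of the promoters. Of the 66 regions of the same place and rank limit on X, 15 held it (22.7%, 13.3 to 34.7). Its share was thus not particular to the autosomal members. The share was 31.7% in members of ranks 1 to 500, 17.6% in ranks 501 to 1000, 11.9% in ranks 1001 to 2000 and 15.4% in ranks 2001 to 3000. Only the first step stood above the lower-ranked steps, whose shares were 14.1%, 14.9% and 12.1%, beyond the intervals. In the 3 GC classes the shares were 6.25%, 18.1% and 29.4%, against 6.66%, 10.6% and 24.2%. Its highest step in members was the 100 bp after the summit, towards the gene, at 13.1% (10.2 to 16.5), against 7.48%.

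**Figure D4:**
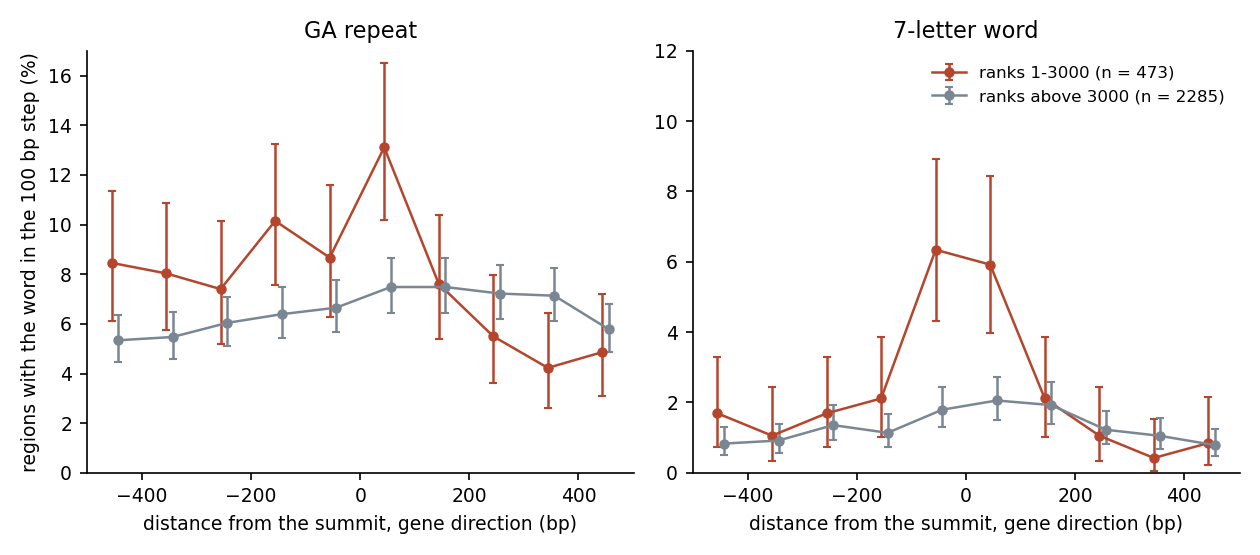
Share of regions (%) with the GA repeat (left) or the 7-letter word (right) in steps of 100 bp around the summit, negative distances lying away from the gene and positive ones towards it, with exact 95% intervals. In members (red) the 7-letter word rises to 6.34% and 5.92% beside the summit and falls to 2.11% or less elsewhere, and lower-ranked regions (grey) stay at or below 2.06%.

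Both words together were in 32 members (6.77%), against 38 lower-ranked regions (1.66%), and in 14 of these members a copy of one overlapped a copy of the other, so their counts are not separate observations. GGCGC was in 90 members (19.0%, 15.6 to 22.9), against 9.80% (8.61 to 11.1), and in 10.9% of the promoters. It was more frequent in members on I to IV but not on V, where it was in 9.26% against 10.3%. Over all 2080 6-letter words, counted with their reverse complements, GACGCA had the largest difference, at 18.0% of members against 6.30%. The next 5 were ACGCAG (16.5% against 5.78%), AGACGC (14.2% against 5.73%), GAGCGC (11.6% against 3.33%), ACGCAA (14.2% against 5.91%) and CGTCTC (14.8% against 6.61%). Of these 6 words, GACGCA, like ACGCAG, lies within the reverse complement of CTGCGTC.

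At the other end of the 2080 words, AAAGTT had the lowest difference, at 27.7% against 35.1%, followed by TCAAAA (46.5% against 53.7%) and TAGAAA (27.9% against 34.4%). A run of 8 A was in 24.7% (20.9 to 28.9) of members and 30.5% (28.6 to 32.4) of lower-ranked regions, with intervals that just overlap. AGGTCA, the half-site that many nuclear receptors of mammals bind, was in 15 members (3.17%, 1.79 to 5.18), 4.38% (3.57 to 5.30) of lower-ranked regions and 5.42% of the promoters, and the first 2 intervals overlap. TTTCAG was in 30.2% (26.1 to 34.6) of members, against 36.1% (34.1 to 38.1), and TATAAA in 28.1% (24.1 to 32.4), against 31.2% (29.3 to 33.1), again with intervals that overlap. The other 9 words searched had member intervals that held the lower-ranked share, for example CACGTG at 3.81% (2.27 to 5.95) against 3.33%, TGATAA at 19.2% (15.8 to 23.1) against 20.7%, and TGACTCA, bound by AP-1 factors, at 2.11% (1.02 to 3.85) against 2.06%. A word match is a description of these letters and not a binding site.

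The 472 genes assigned to members were 2.74% of the 17242 autosomal protein-coding genes, and a further 2181 genes (12.6%) had lower-ranked regions of this place only. Gene lists were made by symbol, and their counts are descriptions. Over all members the median pooled rank was 1026, and 139 of 473 were within ranks 1 to 500. Pooled rank chose the members, so the ranks given for each list are a description.

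Of 79 autosomal ribosomal protein genes, 11 had a member, which is 2.33% (1.17 to 4.13) of member genes, against 11 genes or 0.504% (0.252 to 0.901) of genes with lower-ranked regions only. With members taken from the list of replicate 2 alone the share was 1.27% (0.412 to 2.93), against 0.652%, so that its interval held the lower-ranked share. The median pooled rank of the 11 was 410. After rpl-3, the highest were rpl-12 (signal 57.1, ranks 407 and 81 in replicates 1 and 2) and rpl-15 (signal 55.2, ranks 74 and 810). The region of rpl-12 is head to head with lin-54, 321 bp away, a DREAM complex gene. Others reached their place through 1 replicate, as rpl-23 and rpl-28 did with ranks 413 and 509 in replicate 1 and no region in replicate 2.

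Translation factor genes, taken by symbols that leave out drr-2, numbered 5 of 37, with a median rank of 477. They were 1.06% (0.345 to 2.45) of member genes, against 0.183% (0.0500 to 0.469), with intervals that overlap. Besides eif-3.C the 5 included eif-3.B (signal 54.2, ranks 102 and 999) and iff-2, an eIF5A gene (signal 37.2, ranks 1313 and 308), whose summit lay 1 bp from the start. The 4 aminoacyl tRNA synthetase genes with a member had a median rank of 2256. Their shares were 0.847% (0.231 to 2.16), against 0.183% (0.0500 to 0.469), again with intervals that overlap. kars-1, for lysine, had ranks 3041 and 15151, mars-1, for methionine, 4604 and 19028, and qars-1, for glutamine, 2521 and 22902.

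Chaperone genes had 6 members of 78 genes (1.27%, 0.468 to 2.75, against 0.596%), with a median rank of 131.5. They included hsp-1, the constitutive Hsp70 gene (signal 70.0, ranks 61 and 140), dnj-9, for a J-domain protein (signal 61.6, ranks 130 and 185), and sti-1, a co-chaperone of Hsp70 and Hsp90 (signal 57.9, ranks 72 and 2292). The intervals of the shares overlap. The proteasome list had 1 member, rpn-3, of 33 genes (0.212%, against 0.275%).

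Enzymes of detoxification had 12 members of 176 genes (2.54%, 1.32 to 4.40, against 1.33%, 0.892 to 1.90), with a median rank of 336. The highest were gst-5 (signal 71.6, ranks 64 and 178), ugt-58 (a UDP-glucuronosyltransferase gene, signal 56.9) and ugt-13 (signal 53.8, ranks 93 and 1404). Their median distance to the start was 99 bp, against 204 bp over all members. It rests on 12 regions at 3 bp (cyp-34A7) to 286 bp (ugt-45), and the medians of the lists ran from 51 to 365 bp. No difference is read from it. Nuclear hormone receptor genes had 10 members of 246 genes, a share of 2.12% close to the 1.93% of genes with lower-ranked regions only. Of the 10, 9 were on V, among them nhr-256 (signal 64.0, ranks 171 and 96), nhr-142 (signal 44.7, ranks 145 and 502) and nhr-117 (signal 43.3, ranks 756 and 2544). How many of the 246 genes lie on V was not counted, so the 9 cannot be read as a trait of the members. nhr-28 itself is on X and had no region of this place, and unc-119 had a lower-ranked one of rank 6842 and signal 21.6, 148 bp upstream.

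Genes of the respiratory chain and ATP synthase had 5 members of 63 (1.06%, against 0.413%). cox-5A (signal 66.5, ranks 84 and 77) and ndua-7 (signal 51.8, ranks 848 and 53), for subunits of complex IV and complex I, were high, and ndua-5 was at ranks 4547 and 2239. Genes of fatty acid and lipid metabolism had 5 members of 97 (1.06%, against 0.825%), led by cpt-2, a carnitine palmitoyltransferase gene (signal 44.7, ranks 603 and 321), then acl-6, an acyltransferase gene (ranks 389 and 4019), and cpt-1 (rank 503 and no region in replicate 2). Histones had 2 members of 68 genes, his-37 and his-68 (0.424%, 0.0514 to 1.52, against 0.0459%, 0.00116 to 0.255). The intervals overlap, and 2 genes are too few to read a difference from. Both were among the 3000 highest of both replicates, as were 23.7% of all members. The share of both metabolic lists overlapped that of the lower-ranked set in its interval.

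Splicing and RNA-binding genes had 4 members (0.847%, against 1.01%), led by lsm-5, rsp-8 and ddx-23 at replicate 1 ranks of 243, 706 and 506 and at 7887, 14088 and no region in replicate 2. The ubiquitin list had 5 (1.06%, against 1.33%), with ubc-25, usp-39 (ranks 498 and 7298) and math-22 (ranks 9608 and 1711) highest. Small GTPase genes had 3 of 41 (0.636%, 0.131 to 1.85, against 0.138%, 0.0284 to 0.401), with intervals that overlap. They were rab-18 (ranks 1219 and 3770), sar-1 (ranks 7909 and 2283) and ras-2 (rank 847 and no region in replicate 2). V-ATPase had 2 of 17 genes (0.424% of member genes, against 0.138%), and RNA polymerase II and Mediator 2 of 48 (0.424%, against 0.275%). Homeobox factors had 1 of 63 (0.212%, against 0.321%), and bZIP and stress factors 1 of 29 (0.212%, against 0.275%). Counts of 1 to 2 are too few to read a difference from.

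Chemoreceptor genes were less frequent at members. They were 10 of 472 member genes (2.12%, 1.02 to 3.86), against 173 of 2181 (7.93%, 6.83 to 9.15). The highest were sri-5 (signal 47.3, ranks 342 and 753), srb-6 (ranks 15639 and 1037) and srh-120 (ranks 3874 and 8865). sri-5 stands head to head with rsr-1, a gene of an SR-related splicing protein, whose start lies 532 bp from the summit. C-type lectins and immune effectors had 1 of 314 genes (0.212% of member genes, 0.00536 to 1.17, against 1.38%, 0.930 to 1.96). Neuropeptides and insulins had 2 of 107 (0.424%, 0.0514 to 1.52, against 0.825%, 0.490 to 1.30). In both of these lists the intervals overlap.

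Collagen genes, which build the larval cuticle, had no member among 129 (0 of 472 member genes, which allows a share of up to 0.636% at 3 counts), against 11 genes (0.504%) with lower-ranked regions only. F-box and BTB genes had 4 members (0.847%, against 1.38%), among them fbxb-85 (rank 125 and no region in replicate 2), fbxa-37 (ranks 8058 and 295) and fbxa-79 (ranks 596 and 18770). Marker genes of 6 cell types (intestine, body wall muscle, pharynx, hypodermis, neurons and germline) had no member at all, at 0 of the 39 markers on autosomes, and 3 of them had a lower-ranked region, unc-119, snb-1 and spo-11. Since 2.74% of all autosomal genes had a member, a count of 0 among 39 markers is too small a base to read an absence from.

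**Figure D5:**
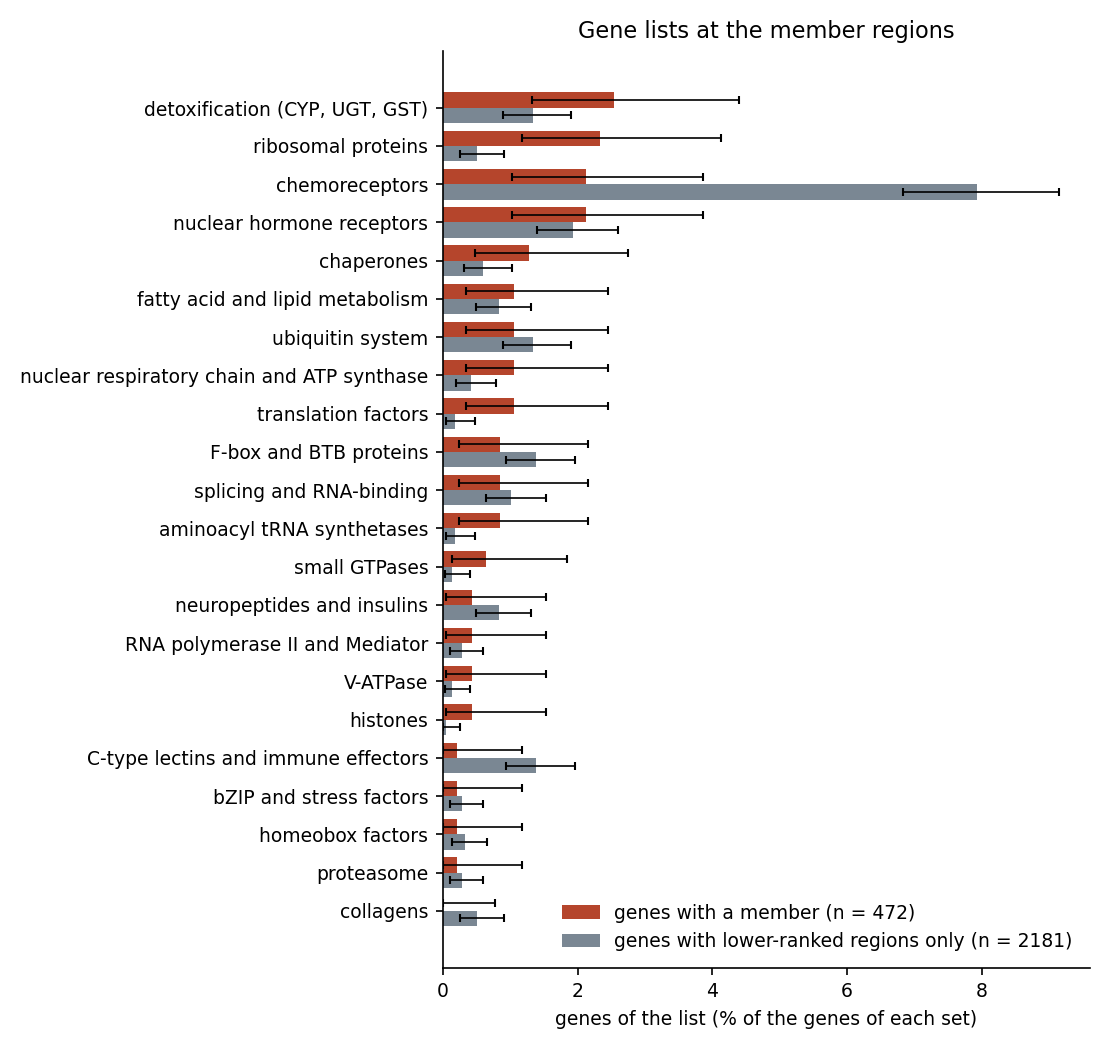
Share (%) of the 472 genes with a member (red) and of the 2181 genes with lower-ranked regions only (grey) that belong to each of 22 gene lists, with exact 95% intervals. Ribosomal proteins stand at 2.33% against 0.504% and chemoreceptors at 2.12% against 7.93%, and the intervals of most other lists overlap.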

How the data were processed

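ChIP-seq of eGFP-tagged NHR-28 in L1 larvae gave 2 biological replicates of 1 group, numbered as in the labels. Lists of peaks with background in ce11 were made by the authors from each replicate and a control, per the deposited listing of files, with another from both replicates together and a thresholded list by the irreproducible discovery rate. The signal of each region is the authors' deposited value, set relative to a control. The aligner is not given in the sources used here, nor are the peak caller and threshold, and without read counts the depth is unknown. The ce10 lists were not used here.

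Genes came from Ensembl release 115 (19985 protein-coding) and sequence from RefSeq, both WBcel235. No region reached past a chromosome end. The summit set each region's place, and the nearest protein-coding start its gene. Words were counted on both strands in 200 bp around summits. Shares have exact Clopper-Pearson 95% intervals over regions, and a count of 0 has instead the limit of 3 counts of the total; both cover counting error only. Medians have order-statistic intervals. No test was made. Python 3.11.15, pandas 2.3.3, SciPy 1.17.1 and Biopython 1.88 were used, and the steps were tested on simulated data.

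Members, gene lists and words were chosen with earlier results of these data known. Named genes were those at the 12 members of best rank, the 3 largest rank ratios between replicates, up to 3 members of best rank in each list with at least 3, the 3 regions on each side of the rank limit, genes with several members, nhr-28 and unc-119. Other names, the second count of both starts and the sequences with CTGCGTC were picked once values were known. Alternatives varied the rank and distance limits, gene starts, windows, overlaps and the replicate behind the list.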

Additional observations from a re-analysis of the deposited data

How the results depend on the processing

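The differences from lower-ranked regions in distance, GC content, head-to-head share, GAGAGA share, CTGCGTC share and ribosomal protein genes kept their direction under every alternative run. Ranks 1 to 1500 gave 288 regions and a GC median of 34.5%, and ranks 1 to 6000 gave 800 regions, 31.5% GC and CTGCGTC in 8.50%. Limits of 300 bp gave a head-to-head share of 59.8%, and 1000 bp a GC median of 31.5%. A 100 bp window held GAGAGA in 9.94% and CTGCGTC in 7.19% of members, against 5.95% and 1.36%, and a 400 bp window in 31.3% and 15.4%, against 23.5% and 6.70%. Restricted to the 112 members among the 3000 highest of both replicates, an alternative added after seeing the data like all those of CTGCGTC, GC was 37.75%, GAGAGA 32.1%, CTGCGTC 18.8% and the ribosomal protein share 4.46%. Their median distance was 185 bp (154 to 212). Their head-to-head share was 51.8% (42.1 to 61.3), and its interval held the lower-ranked 44.4%. Thresholded peaks above their median signal held 3.81% of members. Summits lie at region midpoints, so the midpoint gave the same values.

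With each replicate's own list alone, the rule gave 396 to 464 regions, a median distance of 204.5 to 205.5 bp, GC of 32% to 33%, GAGAGA in 18.5% to 19.9%, CTGCGTC in 9.09% to 9.70%, a head-to-head share of 51.5% to 55.4% and a ribosomal protein share of 1.27% to 1.95%. Of those regions, 49.5% in replicate 2 and 59.3% in replicate 1 overlapped a member. The distance was 204.5 bp (188 to 223) against 220 bp without replicate 1, and 205.5 bp (184 to 221) against 218 bp without replicate 2. Both intervals held the lower-ranked distance. GC was 32% (31 to 33) against 31% without replicate 1, where the interval reached the lower-ranked value, and 33% (32.5 to 33.5) against 31% without replicate 2. For ribosomal proteins the lower-ranked shares were then 0.652% without replicate 1 and 0.740% without replicate 2, and the interval without replicate 1 (0.412 to 2.93) held the lower-ranked share; for head-to-head genes they were 47.0% and 45.3%, and the interval without replicate 1 (46.5 to 56.5) also held the lower-ranked share. No paired analysis was possible because there is only 1 group. Depth is unknown, so the weight of each replicate in the pooled ranks was not tested.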

Other observations

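Where both starts of a head-to-head pair lay within 500 bp, the nearest start alone hid part of the genes beside the members. Counting both starts, a count added after seeing the data, the members touched 568 genes, and the ribosomal protein list grew by 7, rpl-4, rpl-20, rpl-31, rps-19, rps-20, rps-23 and rps-26, to 18 of 568 (3.17%, 1.89 to 4.96), against 20 of 2379 (0.841%, 0.514 to 1.30). The chaperone list grew by 5, cct-1 and cct-8, which belong to the cytosolic chaperonin, dnj-22, fkb-6 and hsp-110, to 11 (1.94%, 0.971 to 3.44), against 17 (0.715%, 0.417 to 1.14). These intervals overlap slightly for chaperones and do not for ribosomal proteins. Chemoreceptors were 12 of 568 (2.11%), against 7.48%.

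At some head-to-head members the second start lay nearly as close. The region at 154 bp from F44E5.4 also lay 197 bp from F44E5.5, with signal 59.6 and ranks 191 and 52 in replicates 1 and 2. The region of rpn-3, a proteasome subunit gene, lay 182 bp from its start and 262 bp from that of hsp-110, an Hsp110 gene, with ranks 214 and 1160. The region of rps-12 lay 142 bp from its start and 151 bp from that of ska-3, with ranks 184 and 167. They were picked once their values were known.

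wdr-23, whose product acts as a repressor of the stress factor SKN-1, had a member 80 bp upstream with signal 58.1 and ranks 83 and 63. No tRNA, snRNA, miRNA or rRNA gene lay within 200 bp of a member's summit. Each count was 0 of 473, which allows a share of up to 0.634% at 3 counts. The lower-ranked shares were 0.306%, 0.131%, 0.0875% and 0%, so no absence can be read from these counts. The rule also left out summits inside any annotated gene. Near 4 members (0.846%, 0.231 to 2.15) lay a snoRNA gene, those of tmem-107, chst-1, oaz-1 and cmtr-1. In lower-ranked regions that share was 0.394% (0.180 to 0.746), and the intervals overlap.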
